A study of Mus musculus with 6 samples.

Results

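The genes described here are 50 genes of rRNA processing and ribosome biogenesis, chosen by name from the 22386 genes of the count table. All 50 were found in the table by gene symbol, and all passed the filter on low counts. The samples are MC38, a cancer cell line of mouse colon origin. Their labels name 3 libraries shControl, with the genotype given as wild type, and 3 libraries shACSL4, with the genotype given as an Acsl4 knockdown, where sh stands for a short hairpin RNA. Both groups were grown in DMEM with serum and antibiotics, and the RNA was total RNA depleted of ribosomal RNA. The series text calls the cells knockouts. The hairpin sequences, and whether a group was 1 clone, are not given by the sources used here. Nothing states that the libraries of a group came from separate cultures, so p-values measure only the spread between these libraries.

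Ribosomes are made in the nucleolus, where RNA polymerase I transcribes a long precursor that carries rRNAs of both subunits. Small nucleolar ribonucleoproteins (snoRNPs) modify and guide the precursor, a large assembly named the small-subunit processome folds and cuts its first part, and separate sets of helicases, GTPases and scaffold proteins build the large subunit. MYC, a transcription factor often raised in colorectal tumours, is known to activate many of these genes.

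Acsl4 was at 191, 194 and 204 CPM across shControl 1 to 3 and 132, 128 and 127 CPM across shACSL4 1 to 3, where CPM are counts per 1e+06, scaled by the TMM method. All 3 shACSL4 libraries lay below the controls (log2 fold change -0.61, SE 0.0517, adjusted p = 3.84e-06). Library totals ran from 40911698 to 47127672 counts, and the lowest count of any member in any library was 598. The colorectal epithelial markers were at or near 0: the 10 of 12 listed markers found in the table summed to 2.08 to 2.80 CPM in the controls and 2.93 to 4.03 CPM in shACSL4, and Cdx1 and Cldn3 had no counts in the controls. Summed markers of other cell types came to 5.92 to 7.64 CPM in the controls and 9.36 to 9.74 CPM in shACSL4 for leukocytes (6 of 8 found), 0.688 to 1.23 CPM in the controls and 1.12 to 1.80 CPM in shACSL4 for endothelium (6 of 6) and 0.775 to 1.74 CPM in the controls and 0.761 to 1.70 CPM in shACSL4 for erythroid cells (4 of 6). The 8 fibroblast markers, of which 3 rose and 1 fell among 7 tested, summed to 1623 to 1703 CPM in the controls and 1829.5 to 2142 CPM in shACSL4, mostly from Col3a1, Dcn and Pdgfra, and Thy1 had no counts in shACSL4. The part of these marker levels in the results below was not tested.

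Ribosome biogenesis genes were mostly at slightly lower levels in the cells with the Acsl4 hairpin. Of the 50 members, 23 fell and 0 rose at an adjusted p under 0.05 with edgeR's quasi-likelihood test, whereas 13.6% of all 14289 tested genes fell and 15.4% rose. Among the 7792 tested genes at or above the mean level of the lowest member, 19.5% fell and 15.2% rose. The log2 fold change was below 0 for 45 members and above 0 for 5, with a median of -0.17 beside -0.01 for all tested genes. All 23 lower members, and 9 more that did not pass the test, had all shACSL4 libraries below all controls, or 32 of 50 where 20.8% of tested genes were. Among the tested genes at or above the mean level of the lowest member it was 2176 of 7792. That share is larger than the 20.8% of all tested genes and smaller than that of the members.

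The changes were small, from -0.42 to 0.17 on the log2 scale over the 50 members. Members that passed the test fell by 0.15 to 0.36 on the log2 scale, a median of 0.858 of the control level. On that scale 0 members moved by 1 or more in either direction. Of all tested genes, 0.931% fell by 1 or more and passed edgeR's test at an adjusted p under 0.05. The 0 therefore does not set the members apart. The SD of the log2 fold change over the members was 0.116. Summed over all members, the genes took 1%, 0.977% and 1.03% of the counts of the controls 1 to 3, against 0.901%, 0.873% and 0.899% for shACSL4 1 to 3. Relative to the control mean, the median member stood at -0.01, -0.03 and 0.04 for the controls 1 to 3, against -0.15, -0.20 and -0.16 for shACSL4 1 to 3 on the log2 scale. This median was lower in all 3 shACSL4 libraries than in any control, and shACSL4 2 was the lowest library for 29 of 50 members. In bulk RNA, fewer cells of a type and less RNA per cell cannot be told apart, and CPM are shares of a library, so a fall in total RNA per cell would not show.

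**Figure D1:**
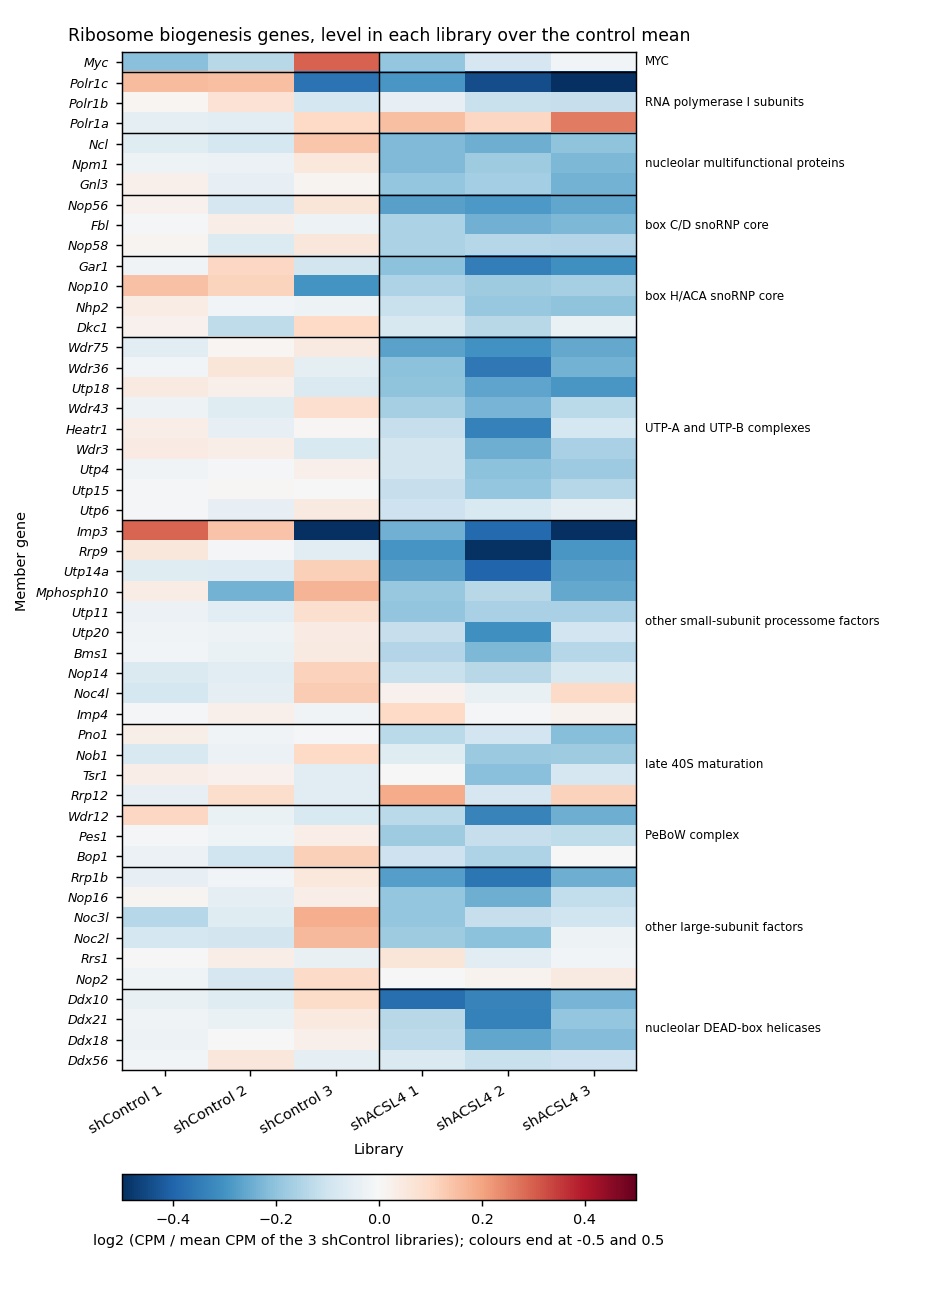
Heat map of the log2 ratio of each member's CPM to the mean of the 3 shControl libraries, with genes in rows by role and the 6 libraries in columns; blue is lower and red higher. Most rows are blue in all 3 shACSL4 columns, while Polr1c, Nop10 and Imp3 are also blue in shControl 3.

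Single libraries set how many members passed. Without shACSL4 2 or shACSL4 3 the number of lower members was 11, without shControl 1 it was 15, and the number without the other libraries was 16 to 29. Over the same fits the number of all tested genes that fell also moved, from 1252 to 2659. The lower members Ddx10, Fbl, Nop56, Rrp1b, Rrp9, Utp14a, Utp18, Wdr36 and Wdr75, 9 in all, kept their call in each of the 14 alternatives.

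**Figure D2:**
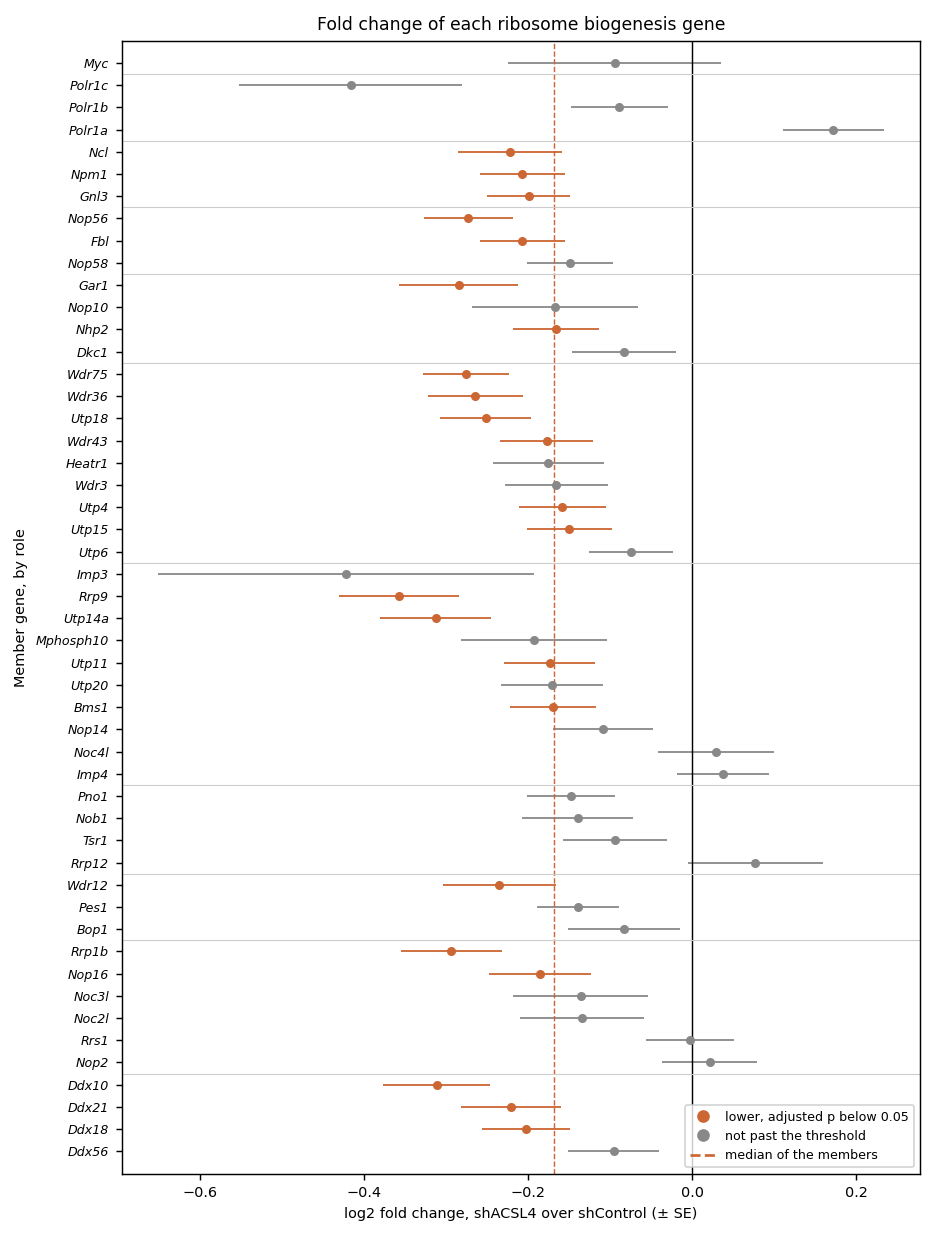
Log2 fold change of each member, shACSL4 over shControl, with bars of 1 SE from edgeR's quasi-likelihood test; orange points had an adjusted p under 0.05 and grey points did not. Points cluster around the dashed line at the median of -0.17, and Polr1a is the farthest to the right at 0.17.

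Levels of the members differed far more than their changes. On the authors' FPKM scale, which divides by gene length, Npm1 was highest at 837 ± 18.03 in the controls (SD, n = 3), followed by Ncl at 209.9 ± 15.8 and Nhp2 at 132 ± 4.59. Ddx21 and Nop56 came next at 94.1 ± 1.80 and 93.5 ± 4.45, which lay within each other's spread. The median member was at 25.7 FPKM, where the median of all tested genes was 5.17. At the low end were Imp4 at 7.53 ± 0.179, Rrp12 at 7.21 ± 0.426, Rrp1b at 7.15 ± 0.146 and Wdr12 at 6.18 ± 0.483 FPKM. The means of Imp4 and Rrp1b lay within the spread of Rrp12. The gene lengths implied by the deposited FPKM values were long for some members, at 10188 bases for Ncl and 11955 for Wdr12, so FPKM of such genes depends on how the authors defined length. Across the 50 members the log2 FPKM level and the log2 fold change had Pearson's r of -0.11 and Spearman's rho of -0.002, a description over genes that share the same 6 libraries.

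**Figure D3:**
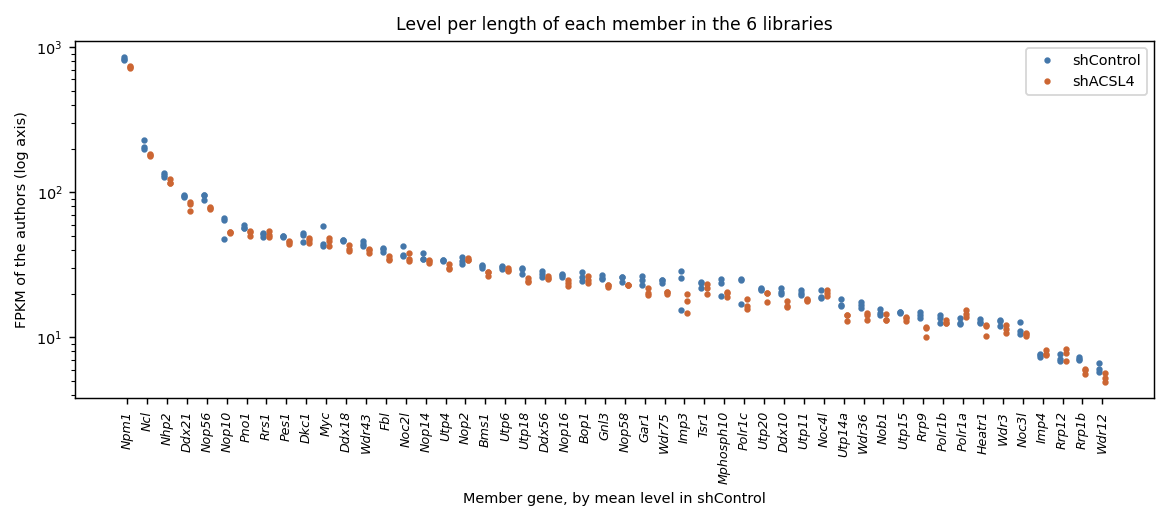
FPKM of each member in the 6 libraries on a log axis, ordered by the mean in shControl (blue) with shACSL4 in orange. Npm1 and Ncl stand above the rest, and the 2 groups lie close together for every gene.

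Myc itself did not pass the test. It was at 114, 120.1 and 162 CPM across shControl 1 to 3 and 115, 125 and 131 CPM across shACSL4 1 to 3 (log2 fold change -0.09, SE 0.13, adjusted p = 0.631). The highest value was in shControl 3 and the lowest in shControl 1, so the groups overlapped. The change of Myc from 132 ± 25.9 to 124 ± 7.78 CPM (SD, n = 3) was within the spread between the control libraries. The log2 fold change of Myc was -0.19 without shControl 1, -0.16 without shControl 2 and 0.08 without shControl 3, so single controls set its size and its direction, and it was -0.05 without shACSL4 1.

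The subunit genes of RNA polymerase I had log2 fold changes of both signs, and 0 of 3 passed the test. With 3 genes this count does not set them apart from all tested genes, of which 13.6% fell and 15.4% rose. Polr1a, which encodes the largest, catalytic subunit, was at 149, 148 and 165 CPM across shControl 1 to 3 and 170.4, 165 and 184 CPM across shACSL4 1 to 3 (log2 fold change 0.17, SE 0.0619, adjusted p = 0.0541). Its shACSL4 libraries were all above its controls, narrowly so for shACSL4 2 and shControl 3, and with shControl 3 left out it rose (adjusted p = 0.00213). With any other library left out its adjusted p was 0.0646 to 0.222. Polr1a also rose with library size alone as the scale, no filter, the stricter filter or protein-coding genes alone (adjusted p of 0.0334 to 0.0385). Polr1b, the gene of the second-largest subunit, was at 78.99, 82.6 and 73.99 CPM across shControl 1 to 3 and 76.3, 72.7 and 72.5 CPM across shACSL4 1 to 3 and the groups overlapped (log2 fold change -0.09, SE 0.0591, adjusted p = 0.289). Polr1c, whose product is shared with RNA polymerase III, was at 57.1, 56.7 and 39.5 CPM across shControl 1 to 3 and 41.8, 37.6 and 35.5 CPM across shACSL4 1 to 3 (log2 fold change -0.42, SE 0.137, adjusted p = 0.0501). Its value in shControl 3 lay among the shACSL4 libraries and well below the other controls. Without shControl 3 Polr1c fell by 0.57 (adjusted p = 1.51e-06), and with any other library left out its adjusted p was 0.0574 to 0.143. DESeq2 called Polr1c lower with all libraries (adjusted p = 0.00404), as did edgeR with DESeq2's size factors (adjusted p = 0.0453).

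Genes of multifunctional nucleolar proteins fell, 3 of 3, beside 13.6% of all tested genes, and the difference was not tested. Ncl encodes nucleolin, which binds rDNA chromatin and the rRNA precursor, and was at 2061, 2019 and 2362 CPM across shControl 1 to 3 and 1842, 1813 and 1870.5 CPM across shACSL4 1 to 3 (log2 fold change -0.22, SE 0.0633, adjusted p = 0.0195). Npm1 encodes nucleophosmin, a histone chaperone of the outer nucleolus, and was at 2199.8, 2194 and 2326 CPM across shControl 1 to 3 and 1922, 1983 and 1917 CPM across shACSL4 1 to 3 (log2 fold change -0.21, SE 0.0513, adjusted p = 0.00915). For both genes all shACSL4 libraries were below the controls, and the pair made up 43.5% of the members' summed CPM in the controls. Gnl3, which encodes the GTPase nucleostemin, was at 162, 154 and 161 CPM across shControl 1 to 3 and 139, 141 and 135 CPM across shACSL4 1 to 3 (log2 fold change -0.20, SE 0.0508, adjusted p = 0.0107), again with no overlap. Adjusted p of Ncl was 0.0791 without shACSL4 1, 0.0844 without shACSL4 2 and 0.0611 without shACSL4 3. For Npm1 it was 0.0613 without shACSL4 1 and 0.0569 without shACSL4 3, and for Gnl3 0.0638 without shACSL4 3. Npm1 has processed pseudogenes in the mouse genome, and how reads shared with them were counted was not given, so its count is uncertain to that extent.

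Core protein genes of box C/D snoRNPs, which methylate rRNA riboses, fell for 2 of 3, where 13.6% of all tested genes fell. Nop56, a scaffold of these particles (ENSMUSG00000027405, chromosome 2, 130116350 to 130121233, GRCm39), was at 390.2, 363 and 402 CPM across shControl 1 to 3 and 318, 316 and 322 CPM across shACSL4 1 to 3 (log2 fold change -0.27, SE 0.0543, adjusted p = 0.00244). Fbl, the methyltransferase fibrillarin, was at 169, 174 and 167 CPM across shControl 1 to 3 and 153, 144 and 146 CPM across shACSL4 1 to 3 (log2 fold change -0.21, SE 0.0513, adjusted p = 0.00914). The groups of both genes did not overlap. Nop58, the partner scaffold of Nop56, was at 276, 261 and 285 CPM across shControl 1 to 3 and 246, 248 and 248 CPM across shACSL4 1 to 3, lower in each shACSL4 library than in each control but just outside the threshold (log2 fold change -0.15, SE 0.0524, adjusted p = 0.0501, or 0.0448 without shControl 2). With all libraries DESeq2 (adjusted p = 0.0479) and limma-voom (adjusted p = 0.0469) called Nop58 lower.

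Core genes of box H/ACA snoRNPs, which convert uridine to pseudouridine, fell for 2 of 4, where 13.6% of all tested genes fell. Gar1, a core protein gene of the particle, was at 42.1, 45.8 and 40.01 CPM across shControl 1 to 3 and 37.02, 33.5 and 34.5 CPM across shACSL4 1 to 3 (log2 fold change -0.28, SE 0.0724, adjusted p = 0.0105) and did not overlap between groups. Nhp2 was at 155, 149.96 and 149 CPM across shControl 1 to 3 and 140.1, 133 and 132 CPM across shACSL4 1 to 3 (log2 fold change -0.17, SE 0.052, adjusted p = 0.0299), with all shACSL4 libraries below the controls. The pseudouridine synthase gene Dkc1 was at 207, 187 and 219 CPM across shControl 1 to 3 and 193, 185 and 199.9 CPM across shACSL4 1 to 3, and its groups overlapped (log2 fold change -0.08, SE 0.0635, adjusted p = 0.36). Nop10, whose product joins the catalytic protein to its partners, was at 72.8, 71.1 and 53.5 CPM across shControl 1 to 3 and 59.1, 58.1 and 58.6 CPM across shACSL4 1 to 3 (log2 fold change -0.17, SE 0.101, adjusted p = 0.25). The lowest library for Nop10 was shControl 3, and without it Nop10 fell (adjusted p = 0.000296). With any other library left out adjusted p of Nop10 was 0.354 to 0.588. Adjusted p of Gar1 was 0.0542 without shControl 2 and 0.0506 without shACSL4 2, and that of Nhp2 0.112 without shControl 1, 0.0665 without shControl 2, 0.094 without shACSL4 2 and 0.127 without shACSL4 3.

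Genes of the UTP-A and UTP-B complexes were lower throughout. These complexes are known from budding yeast to bind the start of the rRNA precursor first. All 9 genes had their 3 shACSL4 values below their 3 control values, and 6 of 9 passed the test, with a median log2 fold change of -0.18. Of all tested genes 20.8% lay below the controls in this way and 13.6% fell, and the difference was not tested. Wdr75, of UTP-A (ENSMUSG00000025995, chromosome 1, 45834326 to 45862779, GRCm39), had the smallest adjusted p of all members and was at 116, 122 and 125 CPM across shControl 1 to 3 and 100.2, 97.9 and 101 CPM across shACSL4 1 to 3 (log2 fold change -0.28, SE 0.0522, adjusted p = 0.00172). Wdr36, of UTP-B, was at 144, 152 and 141 CPM across shControl 1 to 3 and 127, 114 and 124 CPM across shACSL4 1 to 3 (log2 fold change -0.26, SE 0.058, adjusted p = 0.0045). Utp18, also of UTP-B, was at 108, 107 and 99.9 CPM across shControl 1 to 3 and 91.3, 87.5 and 85.7 CPM across shACSL4 1 to 3 (log2 fold change -0.25, SE 0.0556, adjusted p = 0.00465). In each of these 3 genes the gap between the groups was wider than the range within either group. On the log2 scale Wdr43, Utp4 and Utp15, of UTP-A, fell by 0.18, 0.16 and 0.15 (adjusted p = 0.0323, 0.041 and 0.0481). The UTP-A gene Heatr1 (log2 fold change -0.18, adjusted p = 0.07), Wdr3 (-0.17, adjusted p = 0.0661) and Utp6 (-0.07, adjusted p = 0.306) were not past the threshold, the last pair being of UTP-B, and without shControl 3 adjusted p was 0.0475 for Heatr1 and 0.0119 for Wdr3. With no filter on low counts it was 0.0312 for Heatr1. Adjusted p of Wdr43 was 0.0667 without shControl 1, 0.0901 without shACSL4 1, 0.125 without shACSL4 2 and 0.0655 without shACSL4 3, of Utp4 0.0878 without shControl 1, 0.0882 without shControl 2, 0.142 without shACSL4 2 and 0.147 without shACSL4 3, and of Utp15 0.105 without shControl 1, 0.114 without shControl 2, 0.0866 without shACSL4 1, 0.148 without shACSL4 2 and 0.126 without shACSL4 3. The call of Utp15 also ended under 7 other settings (adjusted p of 0.0508 to 0.0749) and that of Utp4 when scaled by library size alone (0.0537) and with the stricter filter (0.0514).

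The promoters of 3 of these genes, with that of Pes1, are shown because they hold the E-box CACGTG, the canonical DNA motif of MYC and its partner MAX, and had the smallest adjusted p among members that do. Sequences are RefSeq's on GRCm38.p6, from 100 bases before the transcription start to 30 from it on, in the direction of transcription, with the E-box in capitals.
Utp18 (chr11:93885737-93885866, minus strand): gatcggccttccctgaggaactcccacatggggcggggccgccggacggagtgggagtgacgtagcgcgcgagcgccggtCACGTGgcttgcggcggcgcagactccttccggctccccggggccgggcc
Wdr43 (chr17:71616115-71616244, plus strand): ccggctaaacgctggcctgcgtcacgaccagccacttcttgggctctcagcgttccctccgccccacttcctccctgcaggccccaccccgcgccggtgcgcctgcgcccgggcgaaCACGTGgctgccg
Utp4 (chr8:106893540-106893669, plus strand): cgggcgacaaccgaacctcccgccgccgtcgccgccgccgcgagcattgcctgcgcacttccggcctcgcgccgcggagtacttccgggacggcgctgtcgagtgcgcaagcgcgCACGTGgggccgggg
Pes1 (chr11:3963875-3964004, plus strand): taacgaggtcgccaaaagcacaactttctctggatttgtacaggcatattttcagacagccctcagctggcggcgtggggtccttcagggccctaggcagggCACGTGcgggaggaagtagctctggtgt
The motif began 20 bases before the start of Utp18 and at base 18 of Wdr43, 16 of Utp4 and 3 of Pes1, counted from the start as base 1. Of the 41 members with a RefSeq promoter, 9 (22%) held CACGTG, a palindrome that reads alike on both strands, between 250 bases before the start and 50 from it on. The share was 8.09% of all 27025 genes with a promoter of that length and 11.3% of the 10542 tested genes matched by symbol. It was 3 of 19 among the lower members and 6 of 22 among those that did not pass the test, where Pes1, Pno1, Utp20, Tsr1, Imp4 and Nop2 held it. A match is a description of letters, and no match in this window says nothing about binding.

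Of the other 10 genes of the small-subunit processome, 4 fell and 6 did not pass the test, where 13.6% of all tested genes fell. Rrp9, a protein of the U3 snoRNP, was at 43.5, 41.7 and 40.3 CPM across shControl 1 to 3 and 34.1, 29.7 and 34.2 CPM across shACSL4 1 to 3 (log2 fold change -0.36, SE 0.0735, adjusted p = 0.00303). This was the largest fall among members that passed, and the groups did not overlap. Utp14a, which in yeast activates a helicase of the processome, was at 68.2, 67.9 and 77.2 CPM across shControl 1 to 3 and 58.9, 53.99 and 58.9 CPM across shACSL4 1 to 3 (log2 fold change -0.31, SE 0.0679, adjusted p = 0.00424). Bms1, a GTPase gene, was at 149, 147 and 155 CPM across shControl 1 to 3 and 136, 129 and 136 CPM across shACSL4 1 to 3 (log2 fold change -0.17, SE 0.0523, adjusted p = 0.0275). Neither overlapped between groups. Utp11 fell by 0.17 (adjusted p = 0.0329), while Utp20 (-0.17, adjusted p = 0.0572) and Nop14 (-0.11, adjusted p = 0.206) did not overlap between groups but missed the threshold. Noc4l, the gene of the binding partner of Nop14, had a log2 fold change of 0.03 (adjusted p = 0.792). Genes of one complex had unlike estimates, whose difference was not tested. The log2 fold change of Imp3 was -0.42 (SE 0.229, adjusted p = 0.222), that of Mphosph10 -0.19 (SE 0.0888, adjusted p = 0.13) and that of Imp4 0.04 (SE 0.0565, adjusted p = 0.656). Imp3 was at 26.3, 23.8 and 14.5 CPM across shControl 1 to 3 and 18.2, 16.5 and 13.6 CPM across shACSL4 1 to 3. Its value in shControl 3 lay among the shACSL4 libraries, and without shControl 3 Imp3 fell (adjusted p = 0.0001). With any other library left out adjusted p of Imp3 was 0.223 to 0.451. Mphosph10 was lower without shControl 2 (adjusted p = 0.00966) and Utp20 without shControl 3 (0.0498) or with no filter (0.0252). With any other library left out adjusted p of Mphosph10 was 0.172 to 0.325. Adjusted p of Bms1 was 0.0654 without shControl 1, 0.0678 without shACSL4 1, 0.108 without shACSL4 2 and 0.0668 without shACSL4 3, and of Utp11 0.0646 without shControl 1, 0.0591 without shControl 3, 0.116 without shACSL4 1, 0.0793 without shACSL4 2 and 0.0942 without shACSL4 3. Rrp9 shares 987 bases with Parp3 on the other strand, which rose from 88.7 to 126 CPM, and without stated strandedness reads of such pairs cannot be told apart.

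Genes of late small-subunit maturation did not pass the test, 0 of 4, where 13.6% of all tested genes fell. With 4 genes this count does not set the group apart. Below 0 were 3 of 4, with a median log2 fold change of -0.12. Nob1, the nuclease that trims the end of the small-subunit rRNA, was at 49.5, 51.1 and 55.9 CPM across shControl 1 to 3 and 50.02, 45.9 and 46.1 CPM across shACSL4 1 to 3 (log2 fold change -0.14, SE 0.0679, adjusted p = 0.145). Pno1, its partner, was at 101, 97.9 and 98.6 CPM across shControl 1 to 3 and 90.3, 92.8 and 85.7 CPM across shACSL4 1 to 3, with no overlap between groups (log2 fold change -0.15, SE 0.0538, adjusted p = 0.0566, or 0.0366 without shControl 3). Tsr1, a GTPase-like factor, was at 91.1, 90.4 and 85.8 CPM across shControl 1 to 3 and 89.3, 77.05 and 84.1 CPM across shACSL4 1 to 3 (log2 fold change -0.09, SE 0.0631, adjusted p = 0.294). Rrp12, a factor of pre-ribosome export in yeast, was at 30.5, 33.4 and 30.3 CPM across shControl 1 to 3 and 35.7, 29.6 and 33.99 CPM across shACSL4 1 to 3 (log2 fold change 0.08, SE 0.0823, adjusted p = 0.521). Groups overlapped for Nob1, Tsr1 and Rrp12. The whole of Pno1 lies within Dnaaf10 on the opposite strand, which was at 39.0 CPM in the controls and 36.1 CPM in shACSL4.

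The PeBoW complex, which is needed for processing of the large-subunit rRNA, had 1 of 3 genes lower, where 13.6% of all tested genes fell. With 3 genes this count does not set the complex apart. Wdr12 was at 79.6, 72.3 and 70.3 CPM across shControl 1 to 3 and 67.4, 58.8 and 62.6 CPM across shACSL4 1 to 3 (log2 fold change -0.24, SE 0.0692, adjusted p = 0.0224). Its groups did not overlap. Pes1 was at 149, 148 and 154 CPM across shControl 1 to 3 and 133, 139 and 138 CPM across shACSL4 1 to 3, also without overlap (log2 fold change -0.14, SE 0.0505, adjusted p = 0.056). Bop1 was at 76.4, 72.9 and 84.8 CPM across shControl 1 to 3 and 72.7, 70.1 and 78.2 CPM across shACSL4 1 to 3 and overlapped (log2 fold change -0.08, SE 0.0683, adjusted p = 0.393). Adjusted p of Wdr12 was 0.111 without shControl 1, 0.0999 without shACSL4 2 and 0.0724 without shACSL4 3.

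The other 6 large-subunit genes divided, with 2 lower, where 13.6% of all tested genes fell. With 6 genes this count does not set them apart. Rrp1b, a nucleolar protein that also binds chromatin, was at 53.8, 54.8 and 57.4 CPM across shControl 1 to 3 and 45.7, 43.04 and 46.7 CPM across shACSL4 1 to 3 (log2 fold change -0.29, SE 0.0618, adjusted p = 0.00351). Nop16 was at 50.1, 48.1 and 50.8 CPM across shControl 1 to 3 and 43.5, 41.9 and 45.6 CPM across shACSL4 1 to 3 (log2 fold change -0.19, SE 0.0623, adjusted p = 0.0406). Neither overlapped between groups. Noc2l was at 152, 152 and 181 CPM across shControl 1 to 3 and 143, 140.1 and 159 CPM across shACSL4 1 to 3, where shControl 1 and 2 lay within the range of shACSL4 (log2 fold change -0.13, SE 0.0756, adjusted p = 0.209). Noc3l, the gene of the partner of Noc2l, had a log2 fold change of -0.14 (adjusted p = 0.242), the rRNA methyltransferase gene Nop2 at 0.02 (adjusted p = 0.816) and Rrs1 at -0.00253 (SE 0.0538, adjusted p = 0.979). Adjusted p of Nop16 was 0.111 without shControl 1, 0.0577 without shControl 2, 0.113 without shACSL4 1, 0.136 without shACSL4 2 and 0.0591 without shACSL4 3, and it was 0.0531 when scaled by library size alone and 0.0521 with the stricter filter.

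Of the nucleolar DEAD-box helicase genes 3 of 4 fell, beside 13.6% of all tested genes, and the difference was not tested. Ddx21, which binds snoRNAs and the rRNA precursor, was at 483, 478 and 505 CPM across shControl 1 to 3 and 444, 386 and 428 CPM across shACSL4 1 to 3 (log2 fold change -0.22, SE 0.0605, adjusted p = 0.0157). Ddx10 was at 63.6, 62.5 and 69.4 CPM across shControl 1 to 3 and 50.2, 51.8 and 55.5 CPM across shACSL4 1 to 3 (log2 fold change -0.31, SE 0.0654, adjusted p = 0.00344). Ddx18 was at 114, 116 and 118 CPM across shControl 1 to 3 and 106, 97.1 and 100.01 CPM across shACSL4 1 to 3 (log2 fold change -0.20, SE 0.0539, adjusted p = 0.0136). In all 3 every shACSL4 library was below every control. Ddx56 was at 68.9, 72.4 and 67.6 CPM across shControl 1 to 3 and 66.2, 64.5 and 64.8 CPM across shACSL4 1 to 3, with no overlap but a smaller difference (log2 fold change -0.10, SE 0.0556, adjusted p = 0.224). Adjusted p of Ddx18 was 0.0659 without shACSL4 2 and 0.062 without shACSL4 3, and of Ddx21 0.0768 without shACSL4 2.

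Other genes of the pathway, taken from lists of known factors that share no gene with the members, were also mostly below the controls. These lists were chosen with earlier results of these data known, so they are no independent support. The shares over all tested genes, to be set beside the counts of these lists, were 13.6% lower and 15.4% higher. Further small-subunit factors had 13 of 40 tested genes lower and 0 higher, with a median log2 fold change of -0.15. In it the pre-rRNA binding factor gene Nop9 fell by 0.40 (adjusted p = 0.000727), Krr1 by 0.31 (adjusted p = 0.00667) and Dcaf13 by 0.22 (adjusted p = 0.00866, or 0.0528 without shACSL4 3). Further large-subunit factors had 22 of 60 tested genes lower and 1 higher, with a median log2 fold change of -0.16. Las1l, an endonuclease gene, went from 93.3 ± 4.29 to 68.3 ± 1.63 CPM (SD, n = 3, adjusted p = 8.54e-05), and the GTPase gene Gtpbp4 from 133 ± 4.42 to 99.4 ± 5.85 CPM (adjusted p = 0.000197). The helicase gene Ddx24 was the higher one, from 108 ± 11.5 to 166 ± 15.3 CPM (adjusted p = 0.000226). Nucleases of the rRNA precursor and their cofactors had 8 of 22 tested genes lower and 1 higher, with a median log2 fold change of -0.18. The exosome cofactor gene Mphosph6 fell by 0.54 (adjusted p = 0.000157), the exosome helicase gene Mtrex by 0.32 (adjusted p = 0.000583) and the exosome subunit gene Exosc9 by 0.33 (adjusted p = 0.0036), while Pop5 rose. Without shACSL4 2 the number of lower genes was 7 for the small-subunit list and 4 for the nucleases, and without shACSL4 3 it was 8 and 4. For the nucleases it was 5 without shControl 2 or shACSL4 1. Pop5 (0.28, adjusted p = 0.00938) was named after its values were seen.

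Further genes of RNA polymerase I transcription had 3 of 13 tested genes lower and 1 higher, and 12 of 13 were below 0, with a median log2 fold change of -0.15. The calls came to 23.1% lower and 7.69% higher, beside 13.6% and 15.4% of all tested genes, and the difference was not tested. Taf1b and Taf1d, subunits of the promoter selectivity factor, fell from 64.9 ± 3.15 to 50.3 ± 1.01 CPM (adjusted p = 0.000631) and from 114 ± 3.72 to 95.6 ± 2.80 CPM (adjusted p = 0.00343). Ubtf, which encodes the HMG-box factor that covers active rDNA, rose from 219.7 ± 11.1 to 264 ± 2.41 CPM (adjusted p = 0.00295). Ubtf was above the controls in all 3 shACSL4 libraries and passed the test in each alternative. The third lower gene, Polr1f, was named after its values were seen (-0.19, adjusted p = 0.0484). Under 7 other settings, and without any library other than shControl 3, this list held 2 lower genes.

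Partners and antagonists of MYC had 2 of 11 tested genes lower and 3 higher, with a median log2 fold change of 0.03. The calls came to 18.2% lower and 27.3% higher, beside 13.6% and 15.4% of all tested genes, and the difference was not tested. Mxd4, a MAX-binding repressor gene, rose from 8.28 ± 0.796 to 12.4 ± 0.799 CPM (adjusted p = 0.00211), and Mlxip rose from 74.5 ± 2.28 to 88.7 ± 2.70 CPM (adjusted p = 0.00415). Mxi1, another MAX-binding repressor gene, fell from 71.8 ± 3.70 to 57.98 ± 4.82 CPM (adjusted p = 0.00559). Also past the threshold, and named after their values were seen, were Mycl (-1.05, adjusted p = 0.00846) and Max (0.24, adjusted p = 0.0294). Genes of metabolism and growth known to respond to MYC had 7 of 24 tested genes lower and 4 higher, with a median log2 fold change of -0.07. Id2 rose from 30.6 ± 2.98 to 68.6 ± 2.47 CPM (adjusted p = 3.85e-07), whereas Ppat, of purine synthesis, fell from 111 ± 1.84 to 84.6 ± 0.252 CPM (adjusted p = 8.82e-05) and Odc1 fell by 0.37 (adjusted p = 0.000169). In this list 18 of 24 genes were below 0, and its share of higher genes was near the 15.4% of all tested genes. Higher in it besides Id2, and named after their values were seen, were Tfrc (0.45), Ccnd2 (0.33) and Shmt1 (0.23). The number of its lower genes was 4 without shControl 1, shControl 2, shACSL4 2 or shACSL4 3.

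**Figure D4:**
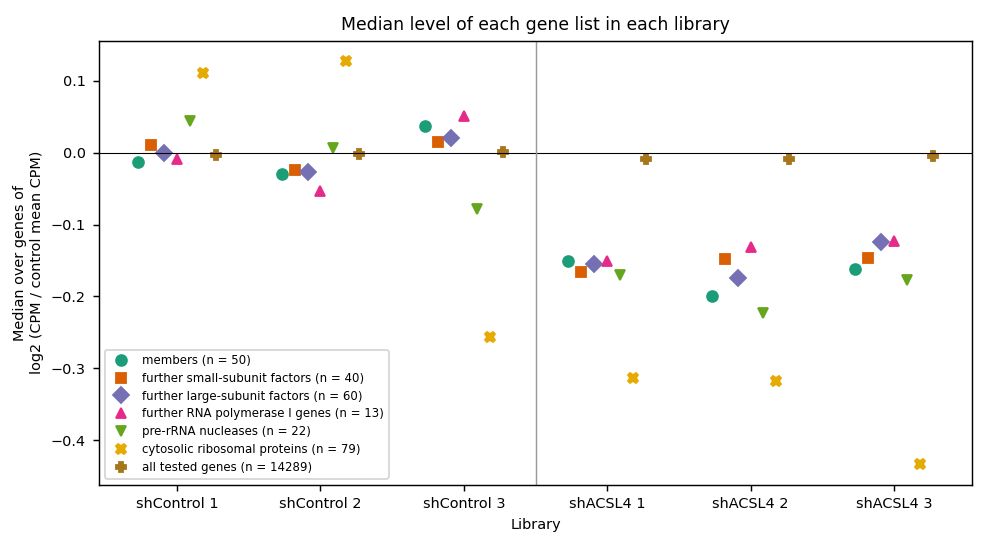
Median over genes of the log2 ratio to the control mean for the members and 6 other gene sets in each library. The members and the further subunit factors lie near 0 in the controls and near -0.17 in shACSL4, while ribosomal protein genes are at -0.26 in shControl 3.

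Genes of cytosolic ribosomal proteins, the building blocks that these factors assemble, differed among the control libraries. They had 37 of 79 tested genes (46.8%) lower and 0 higher, where 13.6% of all tested genes fell and 15.4% rose. Their median log2 fold change was -0.36. Relative to the controls their median stood at 0.11, 0.13 and -0.26 for the controls 1 to 3, against -0.31, -0.32 and -0.43 for shACSL4 1 to 3. shControl 3 thus lay near the shACSL4 libraries for these genes, whereas for the members it was the highest of the controls. Rpl4 fell by 0.32 (adjusted p = 0.000771) and Rpl6 fell by 0.32 (adjusted p = 0.00144). The number of lower ribosomal protein genes was 71 without shControl 3, 15 without shControl 1, 16 without shControl 2, 20 without shACSL4 1, 30 without shACSL4 2 and 13 without shACSL4 3. Reads shared with the many ribosomal protein pseudogenes leave these counts uncertain. Mitochondrially encoded genes took 3.98%, 3.79% and 5.85% of the counts of the controls 1 to 3, against 4.93%, 6.31% and 5.48% for shACSL4 1 to 3, with shControl 3 again apart from the other controls. The part of these shares in the members' values was not tested.

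**Figure D5:**
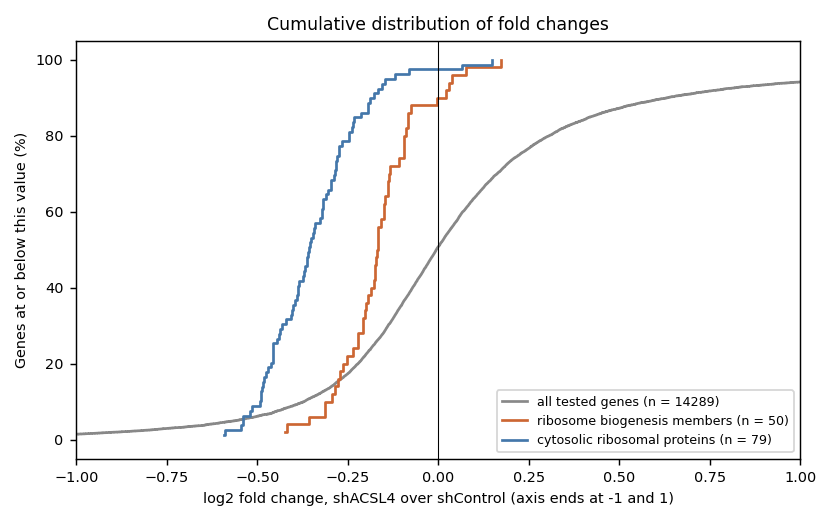
Cumulative share of genes by log2 fold change for the members, the cytosolic ribosomal protein genes and all tested genes. The curve of the members is steep and crosses 50% at -0.17, left of the curve of all tested genes, and that of the ribosomal protein genes crosses at -0.36.

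In the authors' deposited table, 21 of 50 members were lower and 0 higher at an adjusted p under 0.05, where 8.4% of its 22386 genes were lower and 9.51% higher. These shares are over all genes of the table, also those with counts too low for the test here. They are therefore not comparable with the shares of the 14289 tested genes. Of these 21 members 20 were also lower here. Polr1c was lower in the authors' deposited table alone, and Utp4, Utp15 and Nop16 were lower here alone. Of the gene annotations deposited with the counts, the nucleolus term was carried by 38 members (76%) and by 4.35% of tested genes with any term. Apart from the members, 106 tested genes carried the term for rRNA processing. Among those 36 were lower and 4 higher, where 13.6% of all tested genes were lower and 15.4% higher. The median log2 fold change of these 106 genes was -0.17. The members lay on 18 chromosomes, with at most 8 on one, chromosome 11, and 17 of them overlapped another gene of the table, in each case on the opposite strand.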

How the data were processed

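RNA-seq of 6 MC38 libraries was analysed, 3 shControl and 3 shACSL4. Per the submitters' processing notes CASAVA, HISAT2 and DESeq2 were used with GRCm39; the counting program, annotation release, strandedness and versions are not given by the sources used here. Per the file headers, raw counts of each gene were deposited beside FPKM values, for which the authors used a gene length that was not defined. The authors' own comparison gave the log2 fold change, p-value and adjusted p-value of each gene.

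Counts of all genes were scaled by TMM, filtered by expression (minimum count 10, minimum total 15) and fitted on group alone with the two-sided quasi-likelihood test of edgeR 4.0.16 (robust) in R 4.3.3. P-values were adjusted by Benjamini-Hochberg over the 14289 tested genes, with a threshold of 0.05. The SE was derived from the log2 fold change and its F statistic. Groups are called non-overlapping on TMM-scaled CPM. Alternatives were edgeR with DESeq2's size factors, with library size alone, with no filter and with a stricter filter (1 CPM in 3 libraries and 60 counts), protein-coding genes alone, DESeq2 1.42.0, limma-voom (limma 3.58.1), the replicate number as a block, and each library left out. The workflow was tested on simulated data. A count of 0 allows up to 3 counts, 0.0634 to 0.0734 CPM, for counting error only.

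The members, role groups and lists were chosen with earlier results of these data known. Values per library are given for Myc, for each role group of up to 4 genes, for the 3 smallest adjusted p of larger groups, and the 3 smallest adjusted p of each further list are named. An item that this rule names is not reported here. Promoters came from RefSeq, with 41 of 50 members matched by symbol. Protein sequences were not used here.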

Additional observations from a re-analysis of the deposited data

How the results depend on the processing

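The median log2 fold change of the members ran from -0.18 to -0.15 over the 14 alternatives and moved by less than the spread between libraries in each. The number of lower members was 20 to 24 under other scalings, filters and tools. With each library left out in turn the lowest and highest values were 11 and 29 for lower members, 0 and 1 for higher members, 1252 and 2659 for all lower genes and 1666 and 2818 for all higher genes. Likewise the numbers of lower genes were 2 and 3 for further RNA polymerase I genes, 7 and 18 for small-subunit factors, 16 and 28 for large-subunit factors, 4 and 9 for nucleases, 4 and 7 for MYC-responsive genes and 13 and 71 for ribosomal proteins. For partners of MYC 2 and 4 were higher, and 3 and 4 of the MYC-responsive genes. 1 member, Polr1a, was higher with library size alone as scaling, no filter, the stricter filter, protein-coding genes alone or the replicate block. Lower further RNA polymerase I genes numbered 2 rather than 3 under the other scalings, filters and tools, and lower MYC-responsive genes numbered 5 rather than 7 with library size alone, the stricter filter and protein-coding genes. The cause of these differences was not tested.

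Whether libraries with the same replicate number were paired is not stated by the labels. Same-numbered libraries had correlations of deviations of 0.0826, 0.0637 and 0.126, and each library correlated best with its own number, a hint from the data alone. With the replicate number as a block, 32 members were lower, 1 was higher and 60 ribosomal protein genes were lower. The number of all tested genes called with the block is not given here, so these counts have no share beside them. The 9 members lower only with the block, set beside the main fit, were Heatr1, Imp3, Noc2l, Nop58, Pes1, Pno1, Polr1c, Utp20 and Wdr3. A window of 100 bases before the start gave an E-box in 8 of 41 members (19.5%), 5% of all genes and 7.29% of tested genes. Each member had at least 598 counts in each library, and depth limits the precision most for the members with the fewest counts.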
